A study of Danio rerio with 5 samples.

Results

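The Hox genes of these eye-derived cells were taken as every gene symbol that starts with hox, the letter a, b, c or d and a number. They came to 47 of the 15413 symbols that the count tables list, over 7 Hox gene clusters (hoxaa, hoxab, hoxba, hoxbb, hoxca, hoxcb and hoxda), by a rule that reads the symbol alone. By paralogue group, the number in the symbol, 9 were anterior (groups 1 to 3), 16 central (groups 4 to 8) and 22 posterior (groups 9 to 13). All 47 matched a symbol in the RefSeq gene table of the GRCz12tu assembly. Of the 49 protein-coding Hox symbols there, hoxa3a and hoxc11b were not analysed here.

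The cells came from zebrafish of the AB wild-type background that carry Tg[foxc1b:GFP], a transgene in which regulatory sequence of foxc1b, a forkhead transcription factor gene of periocular neural crest, drives GFP. Eyes were dissected at 48, 72, 96, 120 and 144 hours post fertilisation (hpf) from pooled embryos raised in phenylthiourea, which blocks pigment. The GFP+ cells were sorted and read as single-cell 3' RNA libraries, so the carrier line, the medium and the sort were shared by every group. The cell tables name 2 replicate libraries, A and B, at each time point. The sources differ on the library chemistry: in the tables of cells the A libraries of the earliest times, 48 and 72 hpf, carry V2 and every other library V3, while the sample labels name V2 and the methods V3 throughout. As recorded per cell, chemistry and replicate letter cannot be told apart at 48 and 72 hpf.

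The 10 libraries held 12234 cells and 57714560 UMIs (unique molecular identifiers, each counting 1 captured RNA molecule). A library had 102 to 2759 cells, 788648 to 15621511 UMIs and a median of 760 to 3709 UMIs per cell. Levels are given in CPM, a gene's UMIs scaled by all UMIs of the same cells, with exact Poisson 95% intervals that cover counting error only, and 3 UMIs in a library stood for 0.192 to 3.80 CPM. The GFP transcript had 0 UMIs in all cells, so the transgene could not be checked. Transcripts of foxc1b itself were at 39.6 CPM (37.9 to 41.3) in the cells with no Hox UMI, and in 9.94% of them. Of 12095 distinct barcodes, 92 occurred in more than 1 library, and 12 cells with a Hox UMI carried such a barcode. A doublet score marked 176 cells (1.44%), of which 14 had a Hox UMI.

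Hox genes encode homeodomain transcription factors that lie in clusters, and their order along a cluster follows the order in which they are used from head to tail. Genes of like position in different clusters form a paralogue group. Neural crest and mesoderm in front of the hindbrain, the source of most eye mesenchyme, are known to work without Hox genes. Groups 2 and 3 pattern the hindbrain and the pharyngeal arches from the second arch backwards, central groups pattern the trunk, and posterior HoxA and HoxD genes pattern the pectoral fin along its length, with group 13 genes also used at the caudal end of the gut. PBC and Meis proteins of the TALE class bind DNA together with Hox proteins.

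Hox transcripts were rare. They came to 1018 UMIs, 17.6 CPM (16.6 to 18.8), in 398 of 12234 cells (3.25%, exact binomial 95% interval 2.95 to 3.58). At least 1 UMI was found for 43 of the 47 symbols. The 4 others, hoxb6b, hoxc6b, hoxc12b and hoxc13b, had 0 UMIs, where 0 counts allow up to 0.0639 CPM. The 10 symbols with the most UMIs, hoxa2b, hoxa13b, hoxb3a, hoxa11b, hoxa10b, hoxb2a, hoxd12a, hoxd9a, hoxc3a and hoxb5a, held 718 UMIs (70.5%), while 12 symbols had 1 to 5. Genes were captured at their 3' ends, so UMIs of different genes show how much evidence each had and not their relative levels, and read sharing between overlapping neighbours within a cluster was not checked.

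The Hox UMIs fell mainly at both ends of the clusters. Anterior genes held 401 UMIs (39.4%) in 231 cells, posterior genes 443 (43.5%) in 131 cells and central genes 174 (17.1%) in 96 cells. Groups 2, 13 and 3 had the most, with 252, 144 and 129 UMIs, and groups 6 and 7 the fewest, with 12 and 8. The hoxab cluster alone held 426 UMIs (41.8%), hoxba 234, hoxda 183, hoxca 103, hoxaa 44 and hoxbb 28, while hoxcb had none.

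The make-up of the Hox UMIs differed from library to library. The summed Hox level in the A libraries, from 48 to 144 hpf, was 19.0, 12.8, 14.3, 16.7 and 1.3 CPM. In the B libraries it was 11.3, 38.7, 27.8, 27.0 and 7.61 CPM in the same order. Anterior genes gave 97.2% and 75.9% of the Hox UMIs at 48 hpf, and posterior genes 0% and 10.3%. Posterior genes gave 69.4% in 72 hpf B and 81.6% in 96 hpf B, but 6.82% and 6.45% in the A libraries of these times. The intervals of the summed level in replicates A and B did not overlap at 72, 96, 120 and 144 hpf. Libraries 96 hpf B and 120 hpf B together held 628 Hox UMIs (61.7%) and 34.4% of the cells.

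**Figure D1:**
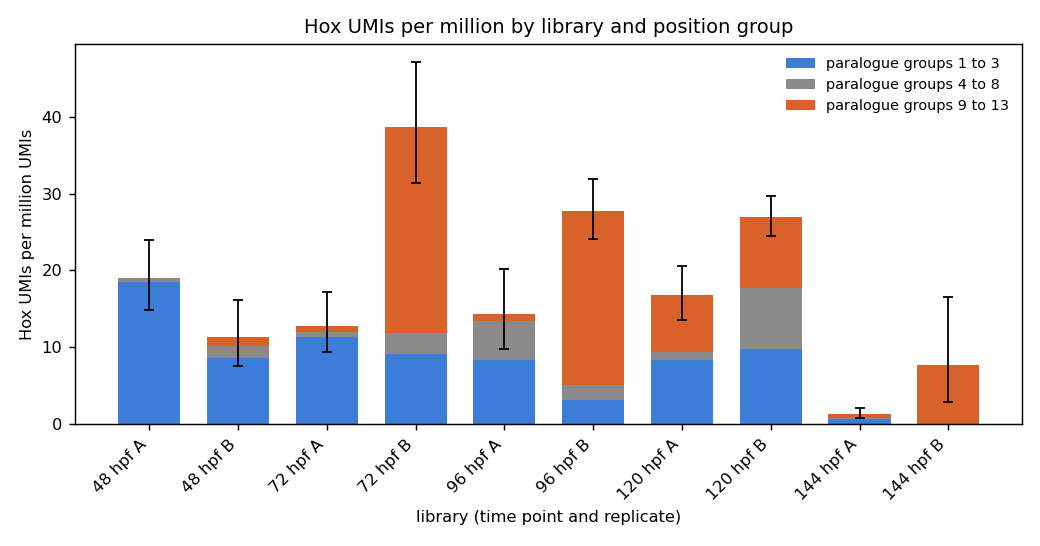
Hox level in CPM in each of the 10 libraries, stacked by zone (anterior, groups 1 to 3; central, groups 4 to 8; posterior, groups 9 to 13), with exact Poisson 95% intervals of the sum. The posterior zone makes up most of the bars of 72 hpf B and 96 hpf B and little or none of 48 hpf A, 72 hpf A and 96 hpf A, and the bar of 144 hpf A is the lowest at 1.3 CPM.

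Of the anterior genes, hoxa2b was the most widely detected. In zebrafish hoxa2b and hoxb2a together set the identity of the second pharyngeal arch. hoxa2b had 50, 27, 10, 18 and 4 UMIs in the A libraries, in order of time, and 16, 13, 13, 43 and 0 in the B libraries. As levels these ran from 13.4 CPM (9.94 to 17.7) in 48 hpf A to 0.289 CPM (0.0786 to 0.739) in 144 hpf A. The values of both libraries at 48 hpf and both at 72 hpf lay above those of both at 120 hpf, and 144 hpf A was lowest among the 9 libraries with a UMI. hoxb2a had 12, 8, 0, 7 and 2 UMIs in the A libraries and 4, 3, 2, 20 and 0 in the B libraries. Its highest level was likewise in 48 hpf A, at 3.21 CPM (1.66 to 5.61), and the intervals of most libraries overlapped.

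The group 3 genes showed another distribution over time. hoxb3a, which is used in the posterior hindbrain and arches, had 7, 2, 0, 15 and 0 UMIs in the A libraries and 1, 1, 0, 52 and 0 in the B libraries, again in order of time. hoxc3a had 0, 0, 4, 2 and 0 UMIs in A and 0, 2, 4, 21 and 0 in B. Library 120 hpf B held most UMIs of both genes. The 5 other anterior genes were thin: hoxd3a had 18 UMIs, hoxb1b 10, hoxc1a 8, and hoxa1a and hoxb1a 1 each.

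Central Hox genes, which pattern the trunk, came mostly from 120 hpf B, with 125 of their 174 UMIs. hoxb5a had 1 UMI in 48 hpf B, 1 in 120 hpf A and 30 in 120 hpf B, and 0 in the other 7 libraries. hoxb5b followed the same split, with 15 of its 17 UMIs in 120 hpf B, and so did hoxb4a with 14 of 15. All 11 UMIs of hoxb8a and all 8 of hoxb7a were in that library. hoxa4a was spread more widely, with 24 UMIs in 23 cells of 7 libraries. hoxc8a had 24 UMIs in only 8 cells of 3 libraries, and hoxd4a 14 UMIs in 13 cells. Of the rest, hoxc5a had 8 UMIs, hoxa5a, hoxb6a and hoxc6a 6 each, hoxc4a 2 and hoxb8b 1.

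Posterior Hox UMIs were found in 9 of 10 libraries, and 72 hpf B, 96 hpf B, 120 hpf A and 120 hpf B held 68, 169, 41 and 144 of the 443. hoxa13b, which in zebrafish acts with its copy hoxa13a in the outer fin, had 0, 0, 1, 16 and 1 UMIs in the A libraries from 48 to 144 hpf and 2, 8, 42, 27 and 0 in the B libraries. The highest level was 5.64 CPM (4.07 to 7.63) in 96 hpf B, against 0.460 CPM (0.0116 to 2.56) in its replicate 96 hpf A. hoxa11b, a group 11 gene of the fin bud, had 21 UMIs in 72 hpf B, 35 in 96 hpf B, 6 in 120 hpf A, 6 in 120 hpf B and 0 elsewhere. At 72 and 96 hpf only library B held hoxa11b, and the replicates did not overlap within their counting intervals.

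Of the hoxda cluster, hoxd9a, hoxd11a and hoxd12a were seen in the same 4 libraries as hoxa11b. hoxd12a had 9 UMIs in 72 hpf B, 28 in 96 hpf B, 4 in 120 hpf A and 12 in 120 hpf B. hoxd9a had 3, 18, 3 and 18 in the same order, and hoxd11a 10, 7, 1 and 5. The other 6 libraries had 0 UMIs of each of these genes. hoxa10b went further, with 13 UMIs in 72 hpf B, 1 in 96 hpf A, 18 in 96 hpf B, 8 in 120 hpf A, 13 in 120 hpf B, 4 in 144 hpf A and 6 in 144 hpf B, and it was the only Hox gene of 144 hpf B. hoxb13a had 20 UMIs, all in 4 cells of 120 hpf B and up to 13 in a single cell. hoxd10a had 22 UMIs, hoxd13a 11, hoxa13a 9, and the other 10 posterior genes that were seen had 1 to 7 each.

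**Figure D2:**
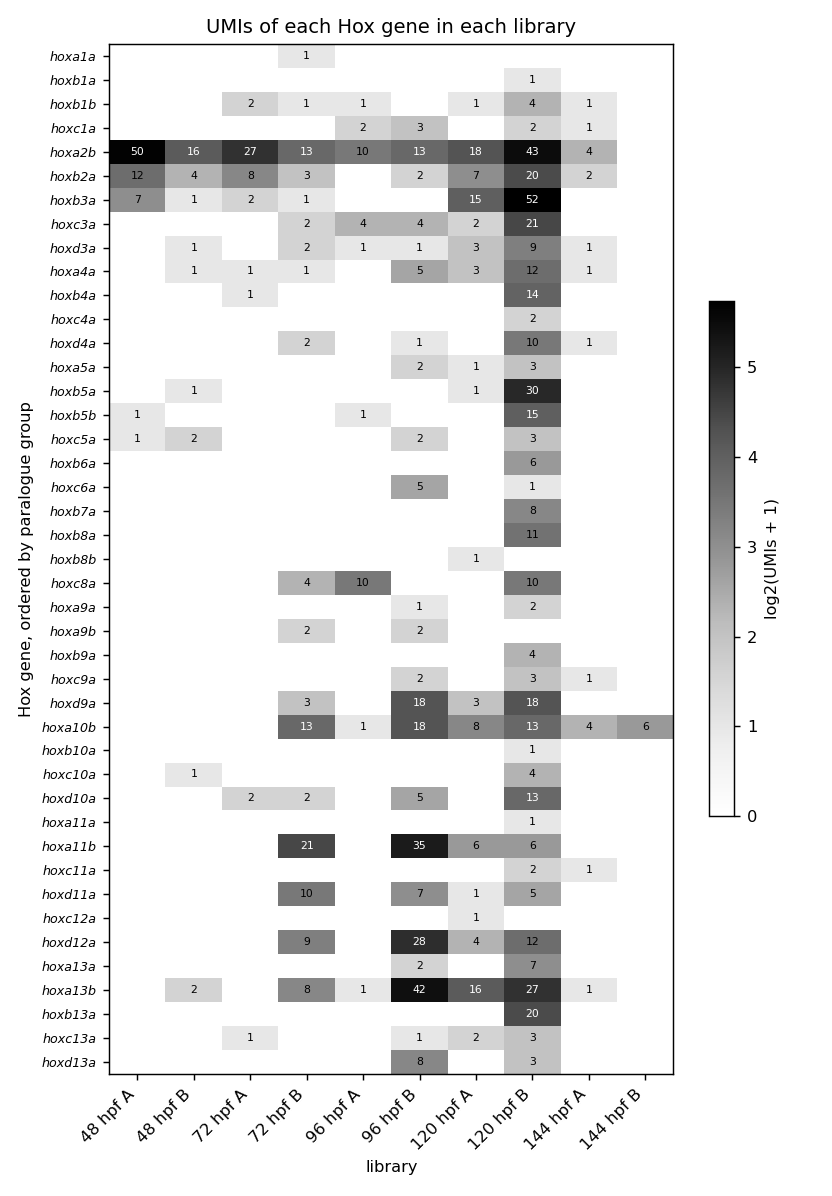
UMIs of the 43 Hox genes with at least 1 UMI (rows, in order of paralogue group) in each of the 10 libraries (columns). hoxa2b reaches 9 libraries, no gene reaches all 10, 12 genes are seen in 1 library only, and the posterior rows are filled mostly in 72 hpf B, 96 hpf B, 120 hpf A and 120 hpf B.

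Which cells held these UMIs was read from 39 clusters of all cells, formed without any Hox gene. Clusters were put into classes by the marker list with the most raised genes, at least 3, and a cell-type name with "-like" is printed only where that list also led the cluster's top genes. The names are rebuilt here, not those of the study. Hox UMIs were concentrated: 9 clusters with at least 25 Hox UMIs held 897 of them (88.1%) and 24.2% of the cells, and 7 clusters had 0. The 13 retinal-like clusters, which should lack Hox transcripts, had 0 to 7.95 CPM and 6 of them had 0.

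**Figure D3:**
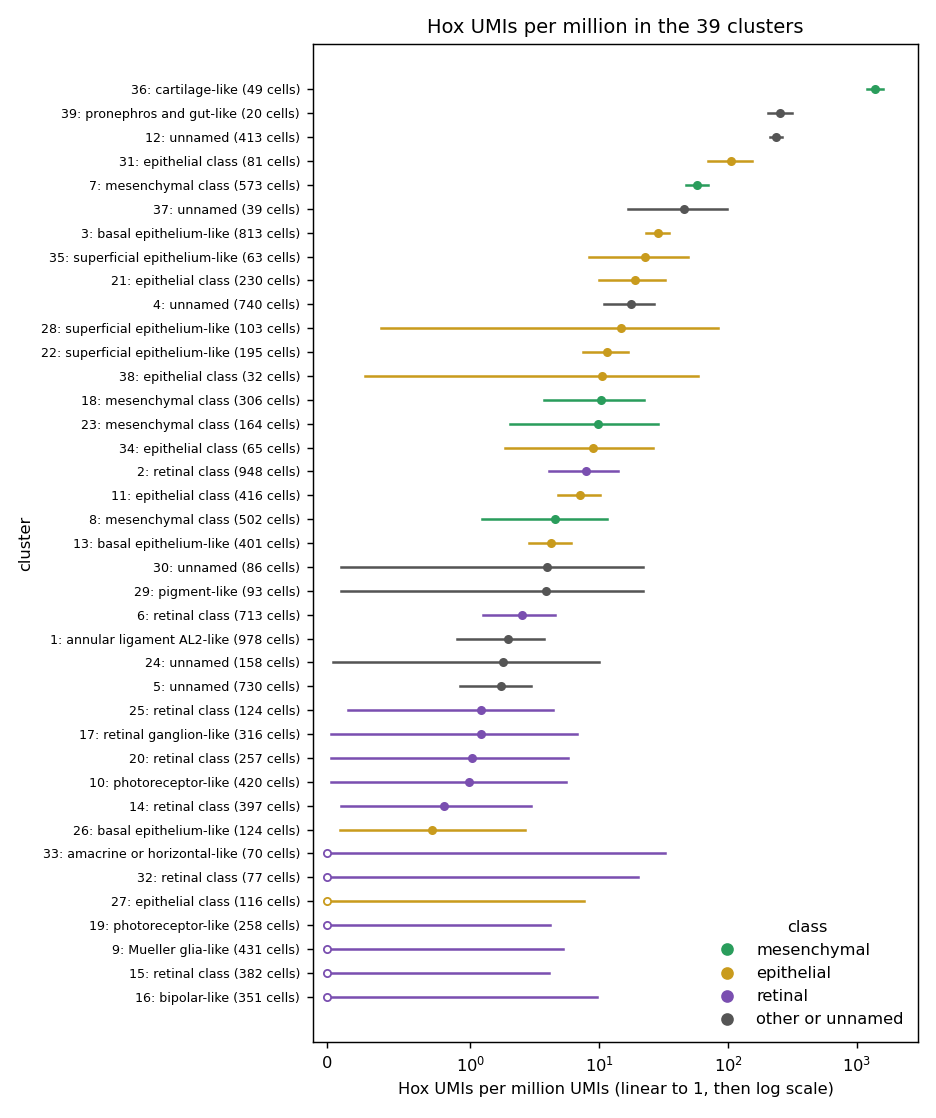
Hox level in CPM in each of the 39 clusters, with exact Poisson 95% intervals, on an axis that is linear near 0 and logarithmic above. Cluster 36, cartilage-like, is highest at 1375 CPM, followed by clusters 39 and 12, while the retinal-like clusters lie at or below 7.95 CPM.

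The densest source was cluster 36, a cartilage-like cluster of 49 cells. It held 196 Hox UMIs at 1375 CPM (1189 to 1582), and 46 of its cells (93.9%) had a Hox UMI. Of these UMIs 182 were posterior, 6 central and 8 anterior. hoxa13b had 49 UMIs there and was seen in 51.0% of the cells, hoxd12a had 32, hoxa11b 29, hoxd9a 27, hoxa10b 16, hoxd11a 9, and hoxd10a and hoxd13a 8 each. These are the HoxA and HoxD genes of the fin. All but hoxd10a and hoxd13a were seen in each library that gave cells to the cluster. There hoxd10a had 0 UMIs in 120 hpf A, and hoxd13a had 0 in 72 hpf B and 120 hpf A. The summed Hox level was 1520 CPM in 2 cells of 72 hpf B and 1535 CPM in 23 cells of 96 hpf B. It was 2419 CPM in 5 cells of 120 hpf A and 892 CPM in 19 cells of 120 hpf B.

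Cluster 36 had other position genes than the mesenchymal clusters 8 and 18, which also had cartilage genes among their top genes. Cluster 8, with 502 cells, was led by col2a1a, matn4 and col9a3, and cluster 18, with 306 cells, by acta2, aqp3a and col2a1a, of which acta2 is a smooth muscle gene. They had 4 and 6 Hox UMIs. These genes helped to form the clusters, so their values are given as a description. tbx5a, the T-box gene that starts the pectoral fin and is also used in the dorsal retina, was at 505 CPM and in 71.4% of the cells of cluster 36, and had 1 UMI in cluster 8 and 0 in cluster 18. hand2, used in fin buds and arches, was at 470 CPM against 11.3 and 8.54 CPM in clusters 8 and 18. In the reverse direction foxc1a was at 63.1 CPM against 536 and 1051 CPM. The transgene's own gene foxc1b was present in all of them, at 323, 450 and 694 CPM in clusters 36, 8 and 18.

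Cluster 12 gave the most Hox UMIs in number. It had 413 cells with 304 Hox UMIs in 90 of them, at 235 CPM, and stayed unnamed because its leading genes, col10a1a, and2, ifitm1, col1a1a and enam, were not those of the arch list that it matched. Of its Hox UMIs 124 were anterior, 78 central and 102 posterior. hoxb3a had 46 UMIs, hoxa11b and hoxa2b 26 each, hoxb2a 24, hoxc8a 22 and hoxa13b 21. The zones differed between libraries: in 120 hpf B, which gave 163 of these UMIs, 79 were anterior, 63 central and 21 posterior, in 72 hpf B 45 of its 56 Hox UMIs were posterior and lay in at most 5 cells, in 96 hpf B 35 of 40 were posterior, and in 120 hpf A 25 of 26 were anterior.

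Inside cluster 12 the cells with anterior and with posterior Hox UMIs held different other genes. In the 50 cells with anterior Hox UMIs alone, the arch genes dlx4a, dlx5a, barx1 and hand2 were at 571, 406, 400 and 394 CPM, and tbx5a, and1 and and2 had 0 UMIs. In the 8 cells with posterior Hox UMIs alone, and2 was at 32821 CPM, and1 at 2057 CPM and tbx5a at 394 CPM, and dlx2a, dlx4a and dlx5a had 0 UMIs. and1 and and2 encode actinodins, the proteins of the fibres that stiffen the fin fold. In the 323 cells of the cluster with no Hox UMI hand2 was at 84.7 CPM, barx1 at 425 CPM and dlx5a at 462 CPM. The 8 posterior cells are few, and no test was made of these values.

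Cluster 7, of the mesenchymal class, held most anterior Hox UMIs of 48 hpf A and 72 hpf A, 62 of 69 and 27 of 39. In 48 hpf B and 72 hpf B it held 2 of 22 and 1 of 23. The unnamed cluster 4, led by the crystallin genes crybb1 and cryba4, held 20 of the 29 Hox UMIs of 48 hpf B. Cluster 7 had 7 of 8 periocular mesenchyme markers raised. Its leading genes were cthrc1a, pmp22a, matn4, col9a3 and cnmd, of which col9a3 and cnmd are cartilage genes. In the study pmp22a is a corneal endothelium marker, and matn4 and cthrc1a had spatial patterns like it. Its 573 cells came mainly from 48 hpf A and 72 hpf A, and it had 103 Hox UMIs in 46 cells at 57.5 CPM (47.0 to 69.8). Of these 93 were anterior, 10 central and 0 posterior, with 65 of hoxa2b, 19 of hoxb2a and 9 of hoxb3a. The level was 69.5 CPM in 48 hpf A and 40.0 CPM in 72 hpf A. foxc1b was at 225 CPM in this cluster, so its cells had the gene that the transgene reports.

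Several clusters of the epithelial class had Hox UMIs of other kinds. In cluster 31, of 81 cells, 26 of the 27 Hox UMIs were of hoxa2b, in 15 cells, and the level was 106 CPM (69.8 to 154). It was put in the epithelial class on 3 of 7 basal epithelium markers, with krt5 at 734 CPM against 17756 CPM in cluster 3, and its leading genes included hmx3a and six1b, genes of the placodes of the ear and lateral line. In cluster 22, superficial epithelium-like, 24 of the 27 were of hoxa10b, in 19 cells, and they came from 6 libraries. Its level was 11.4 CPM (7.54 to 16.7), at a median of 11189 UMIs per cell. That interval, of the summed Hox level, overlapped the one of the highest retinal-like cluster, at 7.95 CPM (4.11 to 13.9). hoxa10b alone was at 10.2 CPM in cluster 22. In the retinal class it was at 0.125 CPM (0.0152 to 0.453), from 2 UMIs in 1 cell. Cluster 3, basal epithelium-like, had 91 Hox UMIs at 28.5 CPM, of which 40 were anterior, 41 central and 10 posterior, and 59 lay in the 98 cells from 120 hpf B. Clusters 11 and 13, also epithelial, had 30 and 31 UMIs at 7.11 and 4.22 CPM. Both levels lie within the range of the retinal-like clusters.

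Cluster 39, pronephros-and-gut-like, was a very small cluster with many Hox UMIs. It had 20 cells, 17 of them from 120 hpf B, and 88 Hox UMIs in 7 cells, of which 72 were posterior. All 20 UMIs of hoxb13a lay here, with 13 of hoxc3a, 10 of hoxd10a and 8 of hoxd9a, and no other library gave a Hox UMI to this cluster. The doublet score marked 8 of the 20 cells. Its leading genes were lgals2b, fabp1b.1 and fabp2, the last an intestinal fatty acid binding protein gene.

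**Figure D4:**
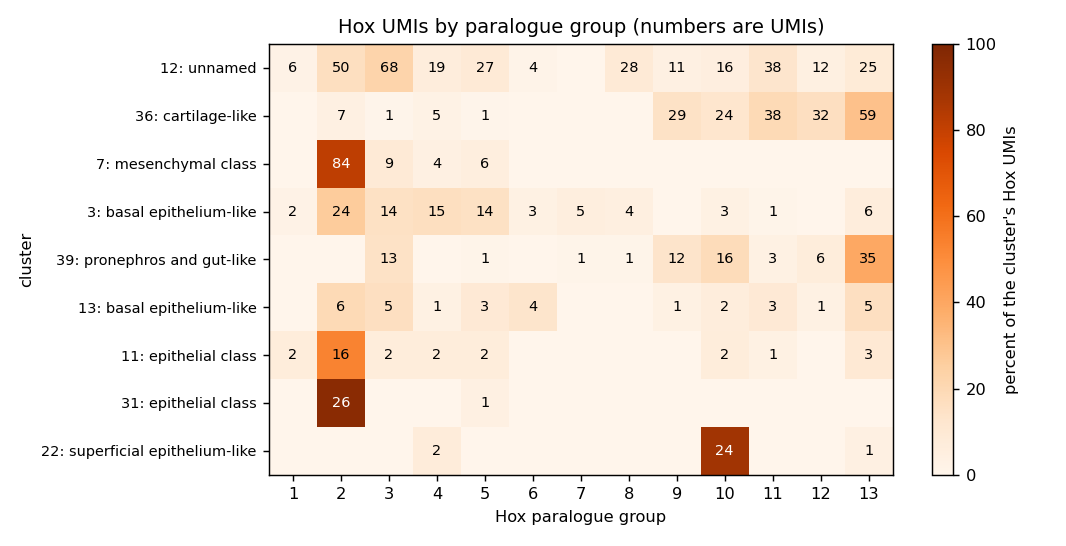
Hox UMIs by paralogue group 1 to 13 (columns) in the 9 clusters with at least 25 Hox UMIs (rows), coloured by the percentage of the cluster's Hox UMIs, with the UMI number in each square. Clusters 7 and 31 are filled at group 2, cluster 22 at group 10, cluster 36 from group 9 to 13, and clusters 3 and 12 over most groups.

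Over classes of clusters, the mesenchymal class (clusters 7, 18, 36 and other mesenchyme-like clusters) had 312 Hox UMIs at 84.1 CPM (75.0 to 93.9). Without cluster 36 it had 116 UMIs at 32.5 CPM. The epithelial class had 232 at 10.5 CPM, and 205 at 9.42 CPM without cluster 31, while the annular ligament-like AL2 class had 9 at 1.98 CPM and the retinal class 30 at 1.88 CPM. The share of cells with a Hox UMI moves with depth, so each cell was thinned to 400 UMIs. It was then 2.32% (1.64 to 3.19) in the mesenchymal class, 0.684% (0.406 to 1.08) in the epithelial class and 0.127% (0.0464 to 0.275) in the retinal class, which serves as background. Unthinned shares were 6.21%, 5.57% and 0.422% at median depths of 1768.5, 3729 and 2282 UMIs, so the epithelial share stood close to the mesenchymal share only before thinning. Before thinning, 46 of the 99 mesenchymal cells with a Hox UMI were in cluster 36 and 46 in cluster 7. The mesenchymal clusters 8, 18 and 23, of 502, 306 and 164 cells, had 4, 6 and 3 Hox UMIs. The mesenchymal share therefore rests on clusters 36 and 7, and no thinned share without cluster 36 is given. Among all cells thinning gave 0.843%, and 18 cells below 400 UMIs were left out.

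Differences between classes were tested with edgeR's quasi-likelihood test on UMIs summed per class and library, with the library as a block and Benjamini-Hochberg adjustment over 8625 genes. Of the 43 genes seen, 5 passed the filter on low counts, and a gene that passed through the class where it was high had to differ, so their number supports nothing. Mesenchymal cells were higher than retinal-like cells for all 5, where 26.0% of all genes tested were higher. hoxa2b was higher by 4.92 ± 0.79 (log2 fold change ± SE; adjusted p = 1.2e-05), from 19.4 CPM against 0.251 CPM. In mesenchymal cells hoxa2b had 43, 20, 0, 0 and 0 UMIs in the A libraries and 2, 2, 1 and 4 in the B libraries of 48 to 120 hpf, so the level rests on 48 hpf A and 72 hpf A, the libraries recorded as V2 in the tables of cells.

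The posterior genes of the class test rested on cluster 36. hoxa13b was higher in mesenchymal than in retinal-like cells by 5.62 ± 0.79, and hoxa11b by 2.79 ± 0.80 (edgeR adjusted p = 0.00852). hoxd12a and hoxd9a had 0 UMIs in retinal-like cells and 32 and 27 in mesenchymal cells, which makes them at least 45.8-fold and 38.7-fold higher against a floor of 3 UMIs over the class. Cluster 36 held 100% of the mesenchymal UMIs of hoxa11b, hoxd12a and hoxd9a, 98.0% of those of hoxa13b and 6.94% of those of hoxa2b. Without it hoxa2b alone passed the filter on low counts, and it was called. Leaving out 48 hpf A, 72 hpf A or 120 hpf B brought the calls from 5 to 3, and leaving out 96 hpf B or 120 hpf A to 2. Without both of these V2 libraries hoxa13b alone passed the filter, and it was called in all 3 comparisons of classes.

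Epithelial cells were higher than retinal-like cells for hoxa2b, by 4.33 ± 0.76, and for hoxa13b, by 2.11 ± 0.85 (edgeR adjusted p = 0.0399), where 31.4% of all genes were higher. The call of hoxa13b was lost without 48 hpf B, 72 hpf B, 96 hpf A, 96 hpf B or 120 hpf B, with an edgeR adjusted p of 0.0515 to 0.172. Mesenchymal cells were higher than epithelial cells for hoxa11b (4.45 ± 0.87), hoxa13b (3.51 ± 0.62), hoxd12a (5.43 ± 0.77) and hoxd9a (5.67 ± 0.79), against 17.6% of all genes. These 4 calls fell to 1 without 96 hpf B or 120 hpf A and to 2 without 120 hpf B, and to 0 without cluster 36, where hoxa2b alone was tested and did not pass at an unadjusted p under 0.05. hoxa2b did not pass between mesenchymal and epithelial cells, with 0.58 ± 0.57 (adjusted p = 0.437). DESeq2 called 2, 1 and 1 Hox genes in the 3 comparisons.

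Over time no Hox gene passed the test with the filter on low counts and all libraries. In sums over all cells of a library, where fewer cells of a type and less RNA per cell cannot be told apart, 5 Hox genes (hoxa2b, hoxa10b, hoxa11b, hoxa13b and hoxd12a) passed the filter, and edgeR called 0 over the 5 time points, where it called 0.0809% of all 9883 genes. At an unadjusted p under 0.05 there was 1, hoxa2b (adjusted p = 0.297), and DESeq2 called 0. Between neighbouring time points edgeR also called 0 of 5, where the shares of all genes called were 0.0, 0.0, 0.0 and 0.0101%. Before adjustment hoxa2b passed 0.05 from 120 to 144 hpf, with a log2 fold change of -3.01 ± 1.06 (adjusted p = 0.881). DESeq2 called 0 in each of these, and left 4 and 5 of the 5 untested between 72 and 96 hpf and between 120 and 144 hpf. Within the mesenchymal class 0 of 5 Hox genes passed over time (7.27% of all genes did), with 3 at an unadjusted p under 0.05, and DESeq2 gave no adjusted p for them. Leaving out 72 hpf A or 72 hpf B gave 1 and 2 calls there. With no filter on low counts edgeR called hoxa2b, hoxa11b, hoxa13b, hoxd12a and hoxd9a there (edgeR adjusted p = 0.000288 to 0.0478). The class changed make-up, as cluster 7 lay mainly at 48 and 72 hpf and cluster 36 at 72 to 120 hpf. The part of this was not tested. Within the epithelial class 0 of 1 passed, also with DESeq2, where 5.84% of all genes did, and hoxa2b had an edgeR adjusted p of 0.562. With 2 libraries a time point and replicates that differed as above, the p-values measure only the spread between these libraries.

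More than 1 Hox gene was often seen in the same cell. Of the 398 cells 262 (65.8%) had UMIs of 1 Hox gene, 136 of at least 2 and 63 of at least 3, and the most was 12. The 136 cells held 67.2% of the Hox UMIs. Of them 38 had posterior genes alone, 31 anterior genes alone, 29 anterior with central genes, 15 central genes alone and 9 central with posterior genes. A further 6 joined anterior with posterior genes without a central gene, and 8 had all zones. No expected number was worked out for these combinations, so they are a description. The pairs seen most often were hoxa11b with hoxa13b in 18 cells (50% of the hoxa11b cells and 32.7% of the hoxa13b cells), hoxa2b with hoxb2a in 17 and hoxa13b with hoxd12a in 15. Of 260 pairs seen in a cell, 26 were seen in at least 5 cells. Of these 26, 23 joined genes of the same zone and 11 genes of the same Hox cluster. The shares over all 260 pairs are not given, so these counts are a description. The zones of a pair follow in part from the clusters that hold the cells, which was not tested separately.

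The other genes of Hox-positive cells, those with UMIs of at least 2 Hox genes, were compared with the cells that had no Hox UMI in the same library. Only 96 hpf B and 120 hpf B had at least 10 such cells, 102 in all against 3993. The fit on these 2 libraries had 1 residual degree of freedom, so its p-values say little about the spread between libraries. The median of UMIs per cell was 3627.5 in the 102 cells and 3093 in the 3993, and the part of depth was not tested. edgeR called 69 genes higher (0.787% of 8763) and 85 lower (0.97%), with 825 genes at an unadjusted p under 0.05. Of the 102 cells, 35 lay in cluster 12, 31 in cluster 36, 15 in cluster 3 and 6 in cluster 39, and genes that lead clusters 12, 36 and 39 were among those higher. mia, a secreted protein gene of cartilage, was at 492 CPM in Hox-positive cells of 96 hpf B and 134 CPM in those of 120 hpf B, against 0.151 and 0.342 CPM in the cells without. Its log2 fold change was 9.81 ± 0.85 (edgeR adjusted p = 2.49e-06).

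Of 8 cartilage markers tested 3 were higher (matn1, epyc and cnmd) and of 7 fin fold and pectoral fin markers 4 (and2, and1, hand2 and tbx5a), with none lower in either list. The medians were 1.74 and 4.69 against -0.17 over all genes. fgfbp2b, which encodes a binding protein of fibroblast growth factors, was higher by 8.02 ± 0.53, pcolceb, of collagen processing, by 7.81 ± 1.23, clic2 by 6.68 ± 0.84, ccn6 by 6.27 ± 0.90 and fn1b, a fibronectin gene, by 5.67 ± 0.54. ninj2 was higher by 5.68 ± 1.21. Genes of few cells stood among them: and2 (7.39 ± 0.46) and and1 (6.17 ± 0.78) were seen in 8 and 7 Hox-positive cells, acmsd (6.32 ± 1.19) in 6 and actc1a, a muscle actin gene (6.78 ± 1.08), in 2. lgals2b, pck1, a gluconeogenesis gene, and anpepb were higher in 120 hpf B alone, in 6 cells each. hand2 was higher in both libraries, at 179 against 1.21 CPM in 96 hpf B and 62.8 against 4.99 CPM in 120 hpf B (5.40 ± 0.86).

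Of the genes that were lower, those with the smallest fold change are known mainly from the retina. The 10 with the smallest fold change all had 0 UMIs in Hox-positive cells. They included cadm3, a cell adhesion gene (at least 73.5-fold lower), rlbp1a and slc1a2b of Müller glia (at least 57.1-fold and 38.9-fold), vsx1 of bipolar cells (at least 43.4-fold), the cone opsin gene opn1lw2 (at least 34.4-fold) and six3b, an eye field gene (at least 22.2-fold). crabp1a, ly6pge, rs1a and rbp4l were at least 44.9-fold, 33.7-fold, 24.5-fold and 20.3-fold lower. Of 13 retinal progenitor markers tested 7 were lower and none higher.

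Since the Hox-positive cells mix anterior and posterior kinds, cells with a posterior and cells with an anterior Hox UMI were each compared with the cells that had none. These comparisons were added after the data were seen, and they share the cells without Hox UMIs, so their values stand side by side only. The posterior comparison took 112 cells against 6473 in 72 hpf B, 96 hpf B, 120 hpf A and 120 hpf B, and edgeR called 85 of 7773 genes higher (1.09%) and 209 lower (2.69%). Of the 112 cells 44 (39.3%) were from cluster 36. Epithelial cells were also a main part: of the 131 posterior cells of all libraries 49 were epithelial and 47 mesenchymal. Without 96 hpf B 169 genes were called in all and without 120 hpf A 88. The median of UMIs per cell was 3636.5 in the posterior cells and 2162 in the others, and the part of depth was not tested.

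tbx5a stood out among the limb genes in posterior cells. It was at 114 CPM in posterior cells of 72 hpf B against 2.24 CPM in those without a Hox UMI, at 93.6 against 3.62 CPM in 96 hpf B, at 14.1 against 4.76 CPM in 120 hpf A and at 71.7 against 3.49 CPM in 120 hpf B. Posterior cells were higher in 4 of 4 libraries, by least in 120 hpf A. The log2 fold change was 4.51 ± 0.55 (edgeR adjusted p = 0.00165), and without cluster 36 it was 2.58 (adjusted p = 0.168). Of 11 limb and body wall position genes tested 3 were higher, tbx5a, hand2 (3.87 ± 0.69) and tbx15 (3.64 ± 0.59), and none lower. The median of the list was 0.85 against -0.18 over all genes. In cells with anterior Hox UMIs tbx5a was at 10.9 CPM against 3.34 CPM and did not pass (1.66 ± 0.65, adjusted p = 0.155).

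Of 12 genes tested that Hox-free anterior crest and the eye use, 6 were lower and none higher in posterior cells, with a median of -2.52 against -0.18 over all genes. lmx1bb was at 7.58 CPM against 40.8 CPM (-2.72 ± 0.59), foxc1a at 8.42 against 50.1 CPM (-2.65 ± 0.52) and six1b at 0.842 against 28.0 CPM (-5.21 ± 0.80). otx2b, a head gene, and alx4b had 0 UMIs in posterior cells, at least 17.6-fold and 5.12-fold lower. The cells with no Hox UMI were of all classes, retinal-like cells among them. Over all libraries otx2b had 2155 UMIs in the retinal class and 14 in the mesenchymal class. lmx1bb and foxc1a were the reverse, with 17 and 30 UMIs in the retinal class and 504 and 1824 in the mesenchymal class. The part of class make-up in these calls was not tested. foxc1b did not pass, at 54.7 against 45 CPM (0.17 ± 0.35, adjusted p = 0.867). In anterior cells 5 of these 12 were lower, lmx1bb, six3b, otx2b and alx4b among them, with a median of -1.01 against -0.33 over all genes.

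Of 6 fin fold and pectoral fin markers tested in posterior cells 4 were higher, and2, and1, tbx5a and hand2. Of 8 cartilage markers edgeR called 0 higher and 1 lower, with 4 at an unadjusted p under 0.05. and2 was higher in 4 of 4 libraries (6.67 ± 0.77), clic2 in 4 of 4 (6.60 ± 0.44), ninj2 in 4 of 4 (6.39 ± 0.79), rxfp2a in 4 of 4 (5.87 ± 1.22) and pdlim5a in 4 of 4 (4.61 ± 0.63). mia (7.51 ± 1.66) and fgfbp2b (6.72 ± 1.26) were higher in 4 of 4, and both lost their call without 96 hpf B or without 120 hpf A. Without cluster 36 fgfbp2b was at 1.43 (adjusted p = 0.315) and fn1b, 4.14 ± 0.99 with it, at 0.70 (adjusted p = 0.718). and1 was higher in 3 of 4 libraries (6.02 ± 0.65) and pcolceb in 3 of 4 (5.88 ± 1.32), while lgals2b, s100a10a, pck1 and cldn15la, an intestinal claudin gene, were higher in 1 of 4. Of 9 superficial epithelium markers 6 were higher, krt4 among them at 20032 against 6698 CPM (1.76 ± 0.30). The 10 genes with the smallest fold change, pmela, vsx1, enam, tfa, rs1a, cahz, pvalb5, neurod4, rdh10a and bhlhe22, had 0 UMIs in posterior cells and were at least 16.9-fold to 54.5-fold lower.

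**Figure D5:**
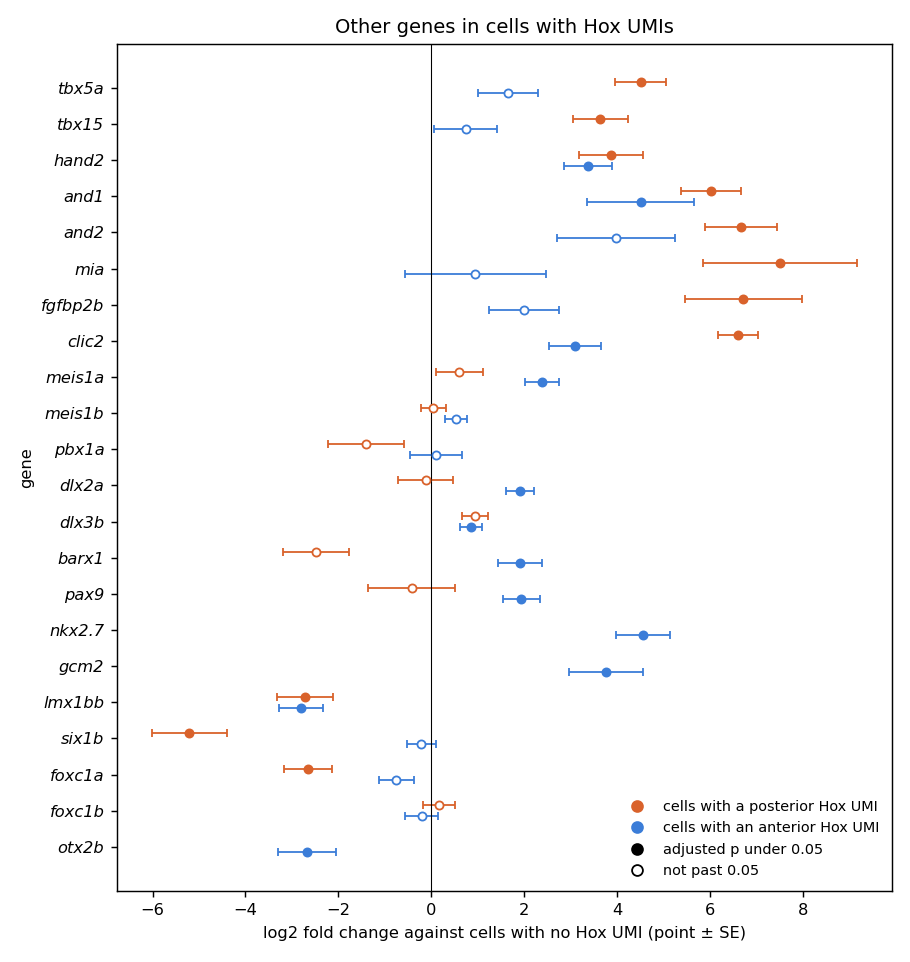
Log2 fold change ± SE (edgeR) of 22 genes in cells with posterior (orange) and with anterior (blue) Hox UMIs against cells with no Hox UMI, filled where the adjusted p is under 0.05. Genes were partly chosen after their values were seen. tbx5a is filled for posterior cells alone, at 4.51, nkx2.7 at 4.56 was tested in anterior cells only, and hand2 is filled for both.

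The comparison of cells with anterior Hox UMIs took 225 cells against 9344 in 8 libraries, from 48 to 120 hpf, and edgeR called 35 of 8473 genes higher (0.413%) and 388 lower (4.58%). Of the 225 cells, 71 (31.6%) lay in cluster 12, 42 in cluster 7, 26 in cluster 3 and 14 each in clusters 11 and 31. nkx2.7, a homeobox gene of the pharyngeal endoderm and heart, was at 55.8 CPM against 1.67 CPM, higher in 7 of 8 libraries (4.56 ± 0.57, edgeR adjusted p = 4.15e-05). Its 87 UMIs lay in 21 cells. Cluster 31 held 72 of the 165 UMIs of nkx2.7 in all cells. Over all libraries it held 64 of the 92 UMIs in cells with an anterior Hox UMI. Without that cluster, an alternative added after the data were seen, nkx2.7 did not pass (2.67, edgeR adjusted p = 0.0815). The median of UMIs per cell was 3610 in the anterior cells and 2121.5 in the others, and the part of depth was not tested. Without 120 hpf A 259 genes were called in all, and gcm2 was not (edgeR adjusted p = 0.0564). gcm2, a gene of the pharyngeal pouches, was higher in 5 of 8 (3.77 ± 0.79), tlx2 in 6 of 8 (3.46 ± 0.73) and hand2 in 7 of 8 (3.37 ± 0.52).

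Of 6 pharyngeal arch markers tested in the anterior cells 4 were higher, hand2, dlx2a (1.91 ± 0.30), barx1 (1.91 ± 0.48) and dlx3b (0.86 ± 0.23), none was lower, and the median was 1.57 against -0.33 over all genes. pax9, used in pharyngeal endoderm and arches, was higher in 8 of 8 libraries (1.94 ± 0.40). In posterior cells pax9 was at -0.42 ± 0.93 and barx1 at -2.48 ± 0.71 (adjusted p = 0.874 and 0.088). clic2, hlx1, gfra1b and zgc:65851 were also higher, by 2.63 to 3.36, in 3 to 6 of the 8 libraries, of which hlx1 lost its call without 48 hpf A, 48 hpf B, 96 hpf A, 96 hpf B or 120 hpf B (edgeR adjusted p = 0.0557 to 0.224) and without cluster 31 (0.0843). and1 was higher with 414 UMIs in 5 cells, in 2 of 8 libraries and not without 96 hpf B (edgeR adjusted p = 0.263), and 6 genes led by lgals2b, which also leads cluster 39, were higher in 1 of 8. The 10 genes with the smallest fold change were mostly pigment and retina genes (pmelb, opn1lw2, rs1a, rpe65a, tyrp1b, olig2, slc45a2, tfa, rgra and opn1mw1), of which tyrp1b had 1 UMI and the others 0. Of 13 retinal progenitor markers 11 were lower and of 9 pigment markers 8.

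Few partners and regulators of Hox proteins passed the test. Of 10 TALE genes tested, among them the Meis and Pbx genes that bind DNA with Hox proteins, meis1a was higher in anterior cells, at 84.1 against 13.4 CPM and in 8 of 8 libraries (2.38 ± 0.36, edgeR adjusted p = 0.000334), and the other 9 did not pass. In posterior cells edgeR called 0 of 10, with 3 at an unadjusted p under 0.05, and meis1a was at 0.60 ± 0.51. In the cells with at least 2 Hox genes edgeR and DESeq2 called 0 of 10, and 0 had an unadjusted p under 0.05. A rule of at least 1 Hox UMI took 394 cells against 11738 in 9 libraries, the anterior cells among them. There edgeR called 67 of 9029 genes higher and 600 lower. Higher were meis1a in 9 of 9 libraries (2.06 ± 0.34, edgeR adjusted p = 0.000932) and meis1b in 6 of 9 (0.60 ± 0.17, edgeR adjusted p = 0.0397). Of 12 upstream regulators of Hox genes tested in anterior cells 2 were lower, where 4.58% of all genes were. They were egr2b, the hindbrain gene known as krox20 (-3.26 ± 0.93), and the retinoic acid receptor gene raraa (-1.24 ± 0.35). In the anterior cells egr2b had 1 UMI, at 0.642 against 6.66 CPM, where 3 UMIs stood for 1.92 CPM. raraa had 22 UMIs there, at 14.1 against 31.5 CPM. By the rule of at least 1 Hox UMI egr2b (-2.29 ± 0.65, with 4 UMIs in the Hox-positive cells), raraa (-1.04 ± 0.25) and cyp26a1 (-1.11 ± 0.26) were lower. The cells with no Hox UMI were of all classes, and over all libraries meis1a was at 1.19 CPM in the retinal class. It was at 25.3 CPM in the epithelial and 20.7 CPM in the mesenchymal class. The median of UMIs per cell was 3691 in the 394 cells and 2402.5 in the others. The part of class make-up and of depth in these calls was not tested. In cells with at least 2 Hox genes edgeR and DESeq2 called 0 of 14 trithorax and Polycomb genes, which keep Hox genes on or off. They also called 0 of 14 genes that flank the Hox clusters, with 2 and 0 at an unadjusted p under 0.05. In that fit, with 1 residual degree of freedom, edgeR called 0.787% of all 8763 genes higher and 0.97% lower. Counts of 0 in lists of 10 and 14 genes are near those shares and are a description.

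Within the mesenchymal class the comparison was in effect cluster 36 against the rest. In 96 hpf B and 120 hpf B 36 mesenchymal cells had at least 2 Hox genes, 31 of them in cluster 36, against 382 with none. The median of UMIs per cell was 3088 in the 36 cells and 1565.5 in the 382, and the part of depth was not tested. edgeR called 63 of 2162 genes higher (2.91%) and 213 lower (9.85%), again with 1 residual degree of freedom. tbx5a had 53 UMIs in the 36 cells, at 568 CPM in 96 hpf B and 354 CPM in 120 hpf B, and 0 UMIs in the 382. hand2 was higher by 6.84 ± 0.93 and sox10, a crest and cartilage gene, by 5.08 ± 1.15. mia, chad, bicdl2, clic2, gcnt4a, fsta, fgfbp2b and f13a1b were also among the 10 with the largest change, and ccl25b, tnn, col11a1b, angptl7 and col9a1b, each at 0 UMIs in the Hox-positive cells, were the 5 with the smallest. Of 7 periocular mesenchyme markers 6 were lower, including twist1a at 0 UMIs. With at least 1 Hox UMI as the rule, 85 cells against 886 in 4 libraries, edgeR called 7 of 3304 genes higher (0.212%) and 39 lower (1.18%), and without cluster 36 it called 1 in all.

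Within the epithelial class too few libraries had at least 10 cells with UMIs of 2 Hox genes for a test. With at least 1 Hox UMI, 122 cells against 1751 in 5 libraries, edgeR called 3 of 6178 genes higher (0.0486%) and 20 lower (0.324%). tlx2 (3.49 ± 0.58), nkx2.7 (3.37 ± 0.49) and myoc (1.57 ± 0.27) were higher in 5 of 5 libraries, nkx2.7 at 39 against 2.97 CPM. Without cluster 31 edgeR called 20 genes in all, tlx2 and myoc among them, and nkx2.7 did not pass the filter on low counts. The 5 genes with the smallest fold change were zgc:172053, zgc:195356, stm, atp1a1a.2 and si:ch211-114n24.6. The cells with a Hox UMI were deeper, with a median of 8977 against 3294 UMIs, and the part of depth in these calls was not tested.

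Across the 35 clusters of at least 50 cells, which leaves out clusters 36 and 39, the genes whose level followed the summed Hox level most closely were sept9a and crip1 (Pearson r = 0.77 and 0.75 on log2(CPM + 1)), dlx4a and msx2b, homeobox genes of arches and fins (0.72 each), lef1, tmem263, myl1 and sostdc1a (0.69 each), and etv4 and nkx3-2 (0.68 each). The clusters share libraries and cluster 12 is the highest of them in Hox level, so these values are a description.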

How the data were processed

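Cells sorted for GFP from dissected zebrafish eyes were read in 10 libraries over 5 time points. The deposited counts are UMIs per RefSeq transcript and cell, which the authors made with Cell Ranger 6.0 on GRCz11, 1 matrix per time point, with no normalization and with the cells that Cell Ranger kept. A matrix of all time points, in which the authors had subsampled reads to equal depth, was used as an alternative. UMIs were summed over transcripts of a symbol. The members, gene lists and markers were chosen with earlier results of these data known.

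All 12234 cells were clustered without Hox genes (log-normalised UMIs, 100 principal components, 20 neighbours, Leiden resolution 1). A cluster took a list's name where at least 3 markers were 4-fold over the median of the other clusters after adding 10 CPM and seen in at least 10% of its cells. The text and figures print that name only where the list's markers outnumbered any other list's among the 10 leading genes and over 50% of them were raised, and otherwise the class. Markers came in 25 lists (185 of 196 genes matched) and other genes in 7 lists (109 of 121 matched). Doublets were scored against simulated doublets and kept, and an alternative left them out.

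UMIs summed per library, or per library and class, were tested with edgeR 4.0.16 (TMM, filterByExpr, glmQLFTest) in R 4.3.3, with Benjamini-Hochberg adjustment over all genes at 0.05. Libraries and classes needed 10 cells. DESeq2 1.42.0 was an alternative, with no filter, each library left out, other resolutions, other definitions of a Hox-positive cell and the replicate letter as a block. The tests were checked on simulated counts. Tables were handled in Python 3.11.15 with numpy 2.4.6, pandas 2.3.3, scipy 1.17.1, igraph 0.11.9, leidenalg 0.10.2 and matplotlib 3.10.9.

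The text names the 10 Hox genes with the most UMIs in full, every Hox gene called, and of other genes the 15 largest and 10 smallest fold changes among those called in all cells, and 10 and 5 within a class. Genes of the fixed lists are named beside their counts, except for an item that is not reported here. Intervals are exact at 95%, and floors stand for 3 counts. Folds given as at least are levels over such a floor, without counting error, and are not 95% bounds.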

Additional observations from a re-analysis of the deposited data

How the results depend on the processing

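Of 1476 alternative values of 113 single-gene results, 1382 kept their direction and side of the threshold, 90 lost the threshold and 4 changed sign. For Hox genes between cell classes, mesenchymal minus retinal, the 5 calls became 2 with DESeq2, 13 with no filter, 3 on subsampled reads, 3 at resolution 2, 2 with Hox genes clustered too, 1 without V2 libraries and 2 to 5 with a library left out. For Hox genes between cell classes, epithelial minus retinal, the 2 calls became 1 with DESeq2, 10 with no filter, 1 on subsampled reads, 1 at resolution 0.5, 0 at resolution 2, 1 with Hox genes clustered too, 1 without V2 libraries and 1 to 2 with a library left out. For Hox genes between cell classes, mesenchymal minus epithelial, the 4 calls became 1 with DESeq2, 2 on subsampled reads, 1 with Hox genes clustered too, 1 without V2 libraries and 1 to 4 with a library left out. Leaving out cluster 36, an alternative chosen after seeing the data, gave 1, 1 and 0, and leaving out cluster 31, also added later, gave 5, 2 and 4. For Hox genes over time within a class, mesenchymal, the 0 calls became 5 with no filter, 1 at resolution 0.5 and 0 to 2 with a library left out. For other genes of Hox-positive cells the 154 calls became 351 with no filter and 667 with at least 1 Hox UMI, and, chosen after seeing the data, 294, 423 and 250 for posterior, anterior and central genes. Over a library left out, also added later, other genes of Hox-positive cells, posterior Hox genes, ranged from 88 to 397 and other genes of Hox-positive cells, anterior Hox genes, from 259 to 423. For other genes of Hox-positive cells within a class, mesenchymal, the 276 calls became 51 with DESeq2, 21 at resolution 0.5, 108 at resolution 2, 46 with at least 1 Hox UMI and 1 when cluster 36 was also left out. The share of cells with a Hox UMI, percent, was 0.843 thinned and 3.25 with no thinning. The sign changed for hoxa11b, epithelial minus retinal, at resolution 2 (0.053), for hoxd12a, epithelial minus retinal, and hoxd9a, epithelial minus retinal, with DESeq2 (-0.29 and -0.37), and for fgfbp2b, pos_mesenchymal main, with at least 1 Hox UMI and without cluster 36 (-0.039). The cause was not tested. The deviations of the A libraries correlated from -0.56 to 0.54, and 4 of 10 pairs were over 0.1. The highest value, 0.54, was that of 48 hpf A with 72 hpf A, the libraries recorded as V2. Whether libraries of a letter share more than the letter was not tested. With the replicate block 0 Hox genes were called over time, as without it. The fits on 96 hpf B and 120 hpf B could not lose a library, and that of epithelial cells with 2 Hox genes could not be made. A library's floor of 0.192 to 3.80 CPM limits what could be seen in the small libraries.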
